A study of Mus musculus with 6 samples.

Results

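The T cell receptor is a surface complex in which antigen-binding chains are held by the CD3 chains, encoded by Cd3d, Cd3e, Cd3g and Cd247, which carry the signal into the cell. The coreceptors CD4 and CD8 (chains encoded by Cd4, Cd8a and Cd8b1) bind the molecule that presents the antigen and bring the kinase LCK to the complex. THY1 is a surface glycoprotein of mouse T cells and of some other blood cells, and TCF7 is a transcription factor of the T lineage. These 10 genes were chosen by symbol, every probe included, and examined in RNA of sorted B220+CD43+ bone marrow, a gate for early cells of the B lineage, which do not normally make a T cell receptor. Of the 10 genes, 8 were among the 19057 gene symbols with a probe, by 16 of the 45281 probes of each array, and Tcf7 and Lck had no probe named for them in the table used here.

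The study compared 3 arrays labelled Fnip1-null with 3 labelled wild type, all Illumina BeadChip arrays of mouse total RNA from sorted bone marrow. Fnip1 encodes folliculin-interacting protein 1. The labels name the null genotype as Fnip 1 -/- and the control as Wt, and the scanner columns of the null arrays also read LPAB - Yugioh, with no explanation in the files. Age and the number of mice behind an array are not given in these sources, nor are allele and strain, unless those words name one of them. The letters A, B and C name the columns of a group as they stand in the table, and a p-value here covers only how these samples vary. Between 17442 and 18294 probes were detected per array (detection p under 0.05), and the median signal lay between 40.5 and 44.3. The brightest probe of Fnip1 itself measured 10.01 ± 0.04 (log2 level, SD, n = 3) in the null group and 9.06 ± 0.14 (SD, n = 3) in the wild type, a rise (limma adjusted p = 0.000665), so the transcript does not bear out the labels, and each direction below is that of the arrays as labelled. Where its probes lie in the gene is unknown here, and one that lies outside a deletion cannot test the labels. By Xist and the Y-linked Eif2s3y, array A of each group held male RNA and the others female RNA.

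Of the 16 probes, 9 were detected on all 6 arrays, 2 on some and 5 on none. The 11 probes detected on at least 3 arrays, which belong to 7 genes, were tested. Both probes of Cd3e and 1 probe of Cd8b1 rose in the group labelled Fnip1-null, and 1 probe of Thy1 was lower (limma, adjusted p under 0.05 over all 18172 tested probes, 14.2% of which were called). Over all tested probes 7.7% were called higher and 6.51% lower. The other 7 tested probes did not pass. The median log2 fold change of the 11 probes was 0.36, against 0.01 over all tested probes.

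**Figure D1:**
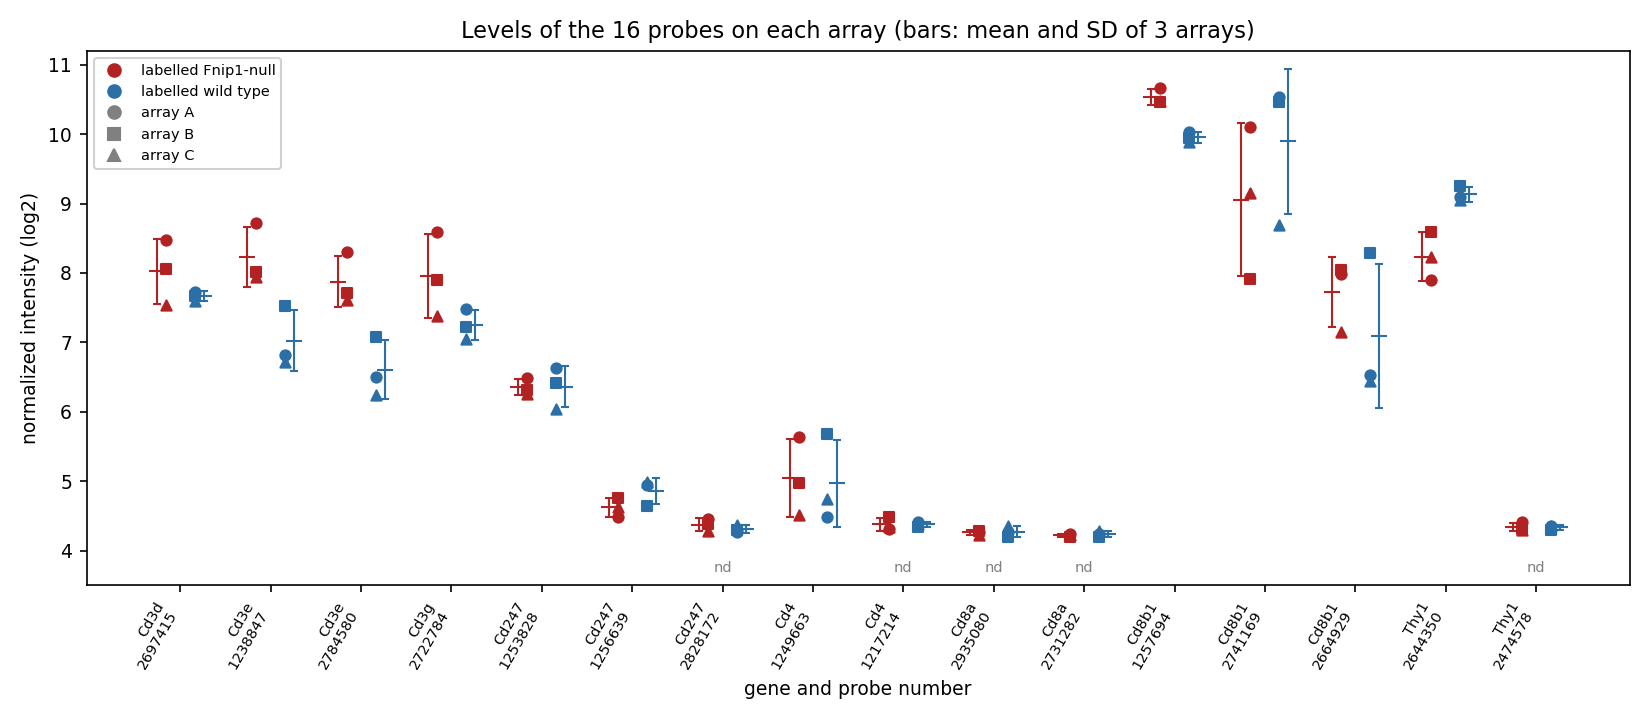
Normalized intensity (log2, vertical axis) of each of the 16 probes on each array, red for arrays labelled Fnip1-null and blue for wild type, with the mean and SD of 3 arrays as bars beside the points. Probes marked nd were detected on no array. Both probes of Cd3e, ILMN_1257694 of Cd8b1 and ILMN_2644350 of Thy1 separate the groups, and both probes of Cd8a lie at the foot of the scale.

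The CD3 chains were measured first. CD3 epsilon, encoded by Cd3e, pairs with the delta and the gamma chain, and its cytoplasmic tail carries a signalling motif. The Cd3e probe ILMN_1238847 read 8.72, 8.01 and 7.95 (normalized intensity, log2) on arrays A, B and C labelled Fnip1-null, and 6.82, 7.53 and 6.72 on those labelled wild type. Its second probe, ILMN_2784580, read 8.30, 7.71 and 7.62 against 6.51, 7.07 and 6.25. For both probes all 3 arrays labelled Fnip1-null lay above all 3 labelled wild type, with array A the highest of its group and array B the highest of the wild type. Cd3e was 2.30-fold higher by the first probe (95% interval 1.55 to 3.42, limma adjusted p = 0.0138) and 2.40-fold higher by the second (1.66 to 3.46, limma adjusted p = 0.0079). The first probe lost its call without array A or C labelled wild type (limma adjusted p = 0.053 and 0.0515). Without a detection filter, which adjusts over all 45281 probes, neither probe passed (limma adjusted p = 0.0964 and 0.0657).

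The genes of the gamma and delta chains lie beside Cd3e on chromosome 9 and each encode a partner of epsilon. Cd3g read 8.60, 7.90 and 7.38 on the arrays labelled Fnip1-null and 7.48, 7.23 and 7.05 on those labelled wild type. The groups overlapped, since array C labelled Fnip1-null lay below array A labelled wild type. The difference was 1.63-fold (95% interval 1.08 to 2.46, limma adjusted p = 0.114). Cd3d read 8.47, 8.05 and 7.54 against 7.73, 7.67 and 7.59. Array C labelled Fnip1-null was the lowest of all 6 arrays for Cd3d, and the difference of 1.28-fold (0.93 to 1.76) gave a limma adjusted p = 0.287. Without that array Cd3g and Cd3d passed, at log2 fold changes of 0.99 and 0.60 (limma adjusted p = 0.0218 and 0.0398), and Cd3g also passed with a block on sex (0.0295). Without array A labelled Fnip1-null the log2 fold changes were smaller, 0.38 for Cd3g (limma adjusted p = 0.235) and 0.13 for Cd3d (0.655).

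Array A labelled Fnip1-null was the highest of the 6 for each of Cd3d, Cd3e and Cd3g, and array B labelled Fnip1-null was next. The zeta chain, encoded by Cd247, carries most of the signalling motifs of the complex and also serves activating receptors of natural killer cells. Its brightest probe, ILMN_1253828, read 6.48, 6.32 and 6.26 on the arrays labelled Fnip1-null and 6.63, 6.41 and 6.04 on those labelled wild type, and here array A labelled wild type was the highest. The log2 fold change was -0.01 (95% interval -0.35 to 0.34, limma adjusted p = 0.987). A second probe, ILMN_1256639, detected on 1 null array and 2 wild type arrays, stood at -0.24 (limma adjusted p = 0.273), and the last, ILMN_2828172, was detected on no array.

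Whether Cd3e changed unlike its partners was tested by the difference of the log2 levels of both genes on each array, among 6 pairs of probes. The change of Cd3e (ILMN_2784580) exceeded that of Cd247 by 1.27 and that of Cd3d by 0.91 on the log2 scale, with the groups apart in both cases. The exact two-sided permutation p was 0.1 for each, the smallest that 3 arrays against 3 allow, and 0.2 after adjustment over the 6 pairs. It exceeded that of Cd3g by 0.56 (exact permutation p = 0.3, adjusted 0.36). With this number of arrays the test could not reach 0.05, so it cannot decide whether the CD3 chains changed unequally. It used the Cd3e probe of the larger change, and the brighter probe ILMN_1238847 was not compared.

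The stretches of 250 bases before the starts of the CD3 genes are shown as a description. Of these genes Cd3e alone was called, but whether they changed unequally is undecided. They are from RefSeq (GRCm38.p6), which held promoters of 7 of the 10 genes, and run 5′ to 3′ along the gene. Capitals mark matches on either strand to 6 motifs. AGGAAG is a core of ETS factor sites. CTTTGA is a core of TCF and LEF factor sites, and so is its variant CTTTGT. The E-box, bound by helix-loop-helix factors, was searched as CANNTG. The motif AGATAA is a site of the zinc finger factors to which GATA3 belongs, and the TATA box was searched as TATAAA. No matches overlapped one another.
Cd3e (chr9:45009612-45009861, minus strand): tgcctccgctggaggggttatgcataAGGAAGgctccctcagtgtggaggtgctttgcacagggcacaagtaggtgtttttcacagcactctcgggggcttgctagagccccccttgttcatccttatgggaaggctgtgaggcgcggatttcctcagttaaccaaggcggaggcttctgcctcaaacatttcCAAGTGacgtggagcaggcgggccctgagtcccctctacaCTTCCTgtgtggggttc
Cd3d (chr9:44981536-44981785, plus strand): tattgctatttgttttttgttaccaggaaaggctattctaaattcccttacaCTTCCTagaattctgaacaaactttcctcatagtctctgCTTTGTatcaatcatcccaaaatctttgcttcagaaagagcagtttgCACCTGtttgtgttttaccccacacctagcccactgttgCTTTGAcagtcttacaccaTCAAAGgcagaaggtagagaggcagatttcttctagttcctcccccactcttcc
Cd3g (chr9:44980432-44980681, minus strand): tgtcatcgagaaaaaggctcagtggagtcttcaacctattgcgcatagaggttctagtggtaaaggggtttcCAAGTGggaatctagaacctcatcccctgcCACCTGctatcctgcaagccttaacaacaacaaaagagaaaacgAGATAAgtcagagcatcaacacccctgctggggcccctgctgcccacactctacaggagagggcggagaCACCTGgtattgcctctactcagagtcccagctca
Cd247 (chr1:165788431-165788680, plus strand): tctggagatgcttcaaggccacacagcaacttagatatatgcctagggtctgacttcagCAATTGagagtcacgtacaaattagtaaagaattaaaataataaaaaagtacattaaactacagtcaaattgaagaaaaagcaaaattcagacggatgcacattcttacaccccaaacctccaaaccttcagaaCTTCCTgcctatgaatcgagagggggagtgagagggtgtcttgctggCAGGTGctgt
The Cd3e stretch holds 2 matches to AGGAAG, the nearer 12 bases before the start, and 1 E-box. The Cd3d stretch holds 1 match to AGGAAG, 2 to CTTTGA, 1 to CTTTGT and 1 E-box. The Cd3g stretch holds 3 E-boxes and 1 match to AGATAA. The Cd247 stretch holds 1 match to AGGAAG and 2 E-boxes. TATAAA is in none of the 4. Among 32851 promoter stretches of the same length, 29.5% hold AGGAAG, 13.8% CTTTGA, 16.5% CTTTGT, 66.2% CANNTG, 9.99% AGATAA and 12.4% TATAAA. These matches describe the letters only.

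**Figure D2:**
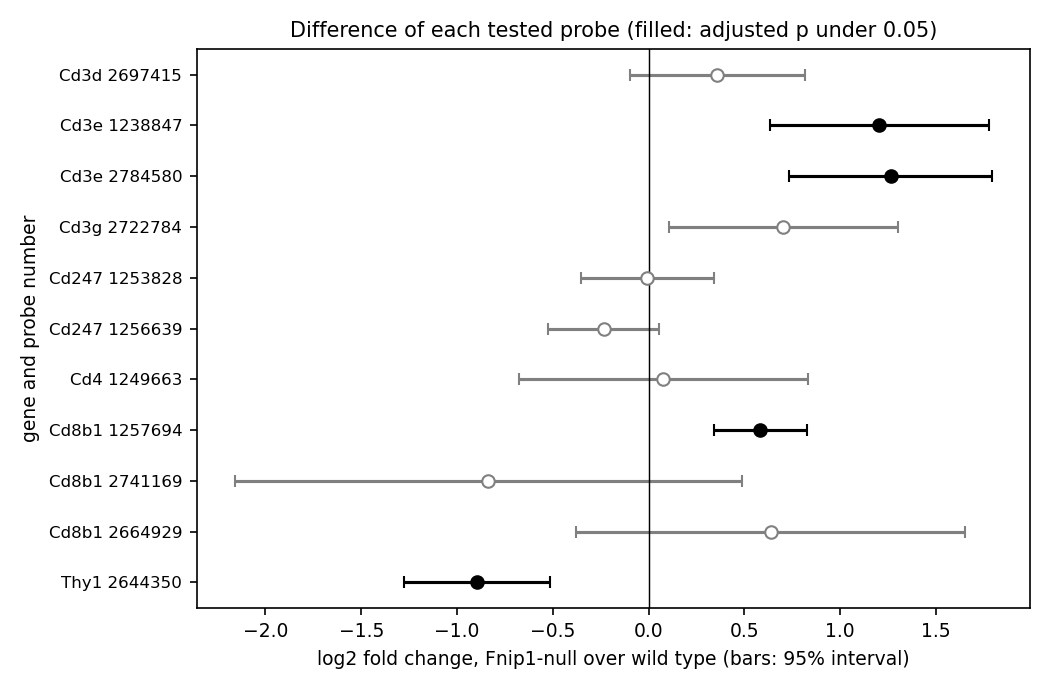
Log2 fold change of each tested probe (horizontal axis, Fnip1-null over wild type) with its 95% interval, for the 11 tested probes (vertical axis). Filled points passed the limma test. Cd3e and 1 probe of Cd8b1 lie to the right of 0 and Thy1 to the left, and the intervals of the other probes of Cd8b1 are the widest.

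Among the coreceptors, the Cd8b1 probe ILMN_2741169 stood lower in the group labelled Fnip1-null while ILMN_1257694 and ILMN_2664929 stood higher. Of these only ILMN_1257694 was called. Cd8b1 encodes the beta chain of CD8, which reaches the surface of a T cell as a partner of the alpha chain. Its probe ILMN_1257694 read 10.66, 10.46 and 10.48 on the arrays labelled Fnip1-null and 10.03, 9.94 and 9.88 on those labelled wild type. These groups lay fully apart, and the difference of 1.50-fold (95% interval 1.27 to 1.77) gave a limma adjusted p = 0.00757. It kept its call under all 15 alternative settings, with log2 fold changes between 0.52 and 0.62.

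The Cd8b1 probe ILMN_2741169 read 10.10, 7.91 and 9.15 on the arrays labelled Fnip1-null and 10.54, 10.46 and 8.68 on those labelled wild type. It was lowest on array B labelled Fnip1-null and on array C labelled wild type, and the groups overlapped. The highest array was 4.56-fold above the lowest within the group labelled Fnip1-null and 3.61-fold within the wild type. The log2 fold change was -0.84 (95% interval -2.16 to 0.49, limma adjusted p = 0.395). The remaining probe, ILMN_2664929, read 7.99, 8.04 and 7.15 against 6.54, 8.29 and 6.44, with array B the highest of each group. Its log2 fold change was 0.64 (-0.38 to 1.65, limma adjusted p = 0.399), and without array B labelled wild type it passed, at 1.24 (limma adjusted p = 0.0184). It was 0.36 without wild type array A and 0.31 without wild type array C (limma adjusted p = 0.707 and 0.728). With 1 array left out ILMN_2741169 ran from -1.44, without wild type array C, to -0.27, without null array B. It was -1.36 without null array A, -0.52 without wild type array A and -0.55 without wild type array B, and passed in none of these.

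All 3 probes carry the same reference transcript in the annotation, and their positions along it are not given. The within-group SD of ILMN_2741169 was 1.07, at or above that of 99.87% of all tested probes, and that of ILMN_2664929 was 0.82, at or above 99.7%. That of ILMN_1257694 was 0.09, at or above 17.91%. The changes of ILMN_1257694 and ILMN_2741169 differed by 1.42 (exact two-sided permutation p = 0.2, adjusted 0.3 over the 6 pairs), those of ILMN_2664929 and ILMN_2741169 by 1.47 (exact p = 0.1, adjusted 0.2), and those of ILMN_1257694 and ILMN_2664929 by -0.05 (exact p = 0.9).

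**Figure D3:**
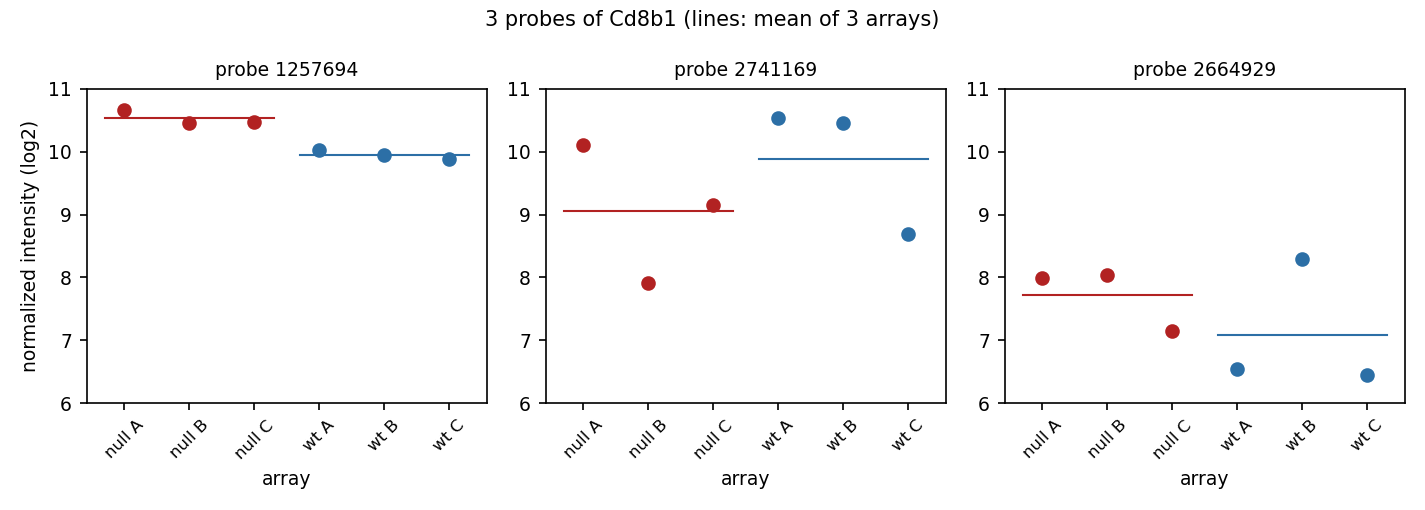
Normalized intensity (log2, vertical axis) of the 3 Cd8b1 probes on each array (horizontal axis), red for arrays labelled Fnip1-null and blue for wild type, with the mean of 3 arrays as a line. The first probe separates the groups within a narrow range, and the other probes vary between arrays of one group by more than their means differ.

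Cd8a encodes the alpha chain, which CD8 beta needs to reach the surface in T cells. Neither of its probes was detected on any array. Their normalized intensities lay between 4.20 and 4.36, near the lowest value of any probe (4.15), and their detection p between 0.389 and 0.988. Cd4 encodes the coreceptor of helper T cells, which some mouse dendritic cells also carry. Its probe ILMN_1249663 was detected on 2 null arrays and 1 wild type array. It read 5.64, 4.98 and 4.52 against 4.49, 5.68 and 4.74, so that array A labelled Fnip1-null and array B labelled wild type stood above the others. The log2 fold change was 0.08 (95% interval -0.68 to 0.83, limma adjusted p = 0.915). Its second probe was detected on no array.

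Thy1 was the member that fell. The probe ILMN_2644350 read 7.89, 8.59 and 8.22 on the arrays labelled Fnip1-null and 9.10, 9.25 and 9.04 on those labelled wild type. All arrays labelled wild type lay above all labelled Fnip1-null, and array A labelled Fnip1-null, the highest for Cd3d, Cd3e and Cd3g, was the lowest for Thy1. The level was 1.86-fold higher on the arrays labelled wild type (95% interval 1.43 to 2.42, limma adjusted p = 0.00837). The call was kept with each array left out and lost without a detection filter (0.0527). A second probe of Thy1 was detected on no array. Of the 11 tested probes, the 4 that were called were also those whose groups did not overlap, 3 with Fnip1-null above and 1 with wild type above. Over all tested probes 17.4% and 16.4% lay apart in these directions, 33.8% in all.

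In RNA of a sorted population, fewer cells of a type and less RNA per cell cannot be told apart, so marker lists of the cells the gate could hold are given beside these results, counted by each gene's brightest probe. The lists were chosen with earlier results of these data known, so their shares beside those of all genes are descriptions. Of the 14 T cell markers 7 were tested, and Cd3e was the 1 that rose (14.3%, against 7.86% of all genes). At an unadjusted limma p under 0.05, 3 were higher and none lower. Besides the CD3 chains, Trat1 stood at 0.44, Bcl11b at 0.29 and Cd28 at 0.13 on the log2 scale (limma adjusted p = 0.09, 0.407 and 0.621), and Cd5 and Themis did not reach the detection filter. Bcl11b, a transcription factor gene of the T lineage, was highest on array A labelled Fnip1-null (5.92, against 4.86 to 5.25 on the other arrays). The 7 tested T cell markers include the members Cd3d, Cd3e, Cd3g and Cd247. Of the 7, 6 were highest on array A labelled Fnip1-null, and Cd247 on array A labelled wild type. Cd3d, Cd3e and Cd3g are thus counted again here, and the others of the 6 were Trat1, Bcl11b and Cd28. The summed normalized intensity of the tested T cell markers, the members included, ran from 834 to 1460 on the arrays labelled Fnip1-null and from 621 to 785 on those labelled wild type. The members make up most of these sums, which therefore repeat the levels given above. Trat1, Bcl11b and Cd28 each overlapped between the groups.

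Natural killer cells carry Thy1 in part and use the zeta chain without a T cell receptor. Of 10 tested natural killer markers 2 fell (20%, against 5.25% of all genes) and none rose (4 lower and 0 higher at an unadjusted limma p under 0.05). Those that fell were Eomes (log2 fold change -0.86, limma adjusted p = 0.0215) and Klre1 (-0.88, 0.0467). The summed intensity of the 10 markers ran from 11045 to 13698 on the arrays labelled Fnip1-null and from 10650 to 15582 on those labelled wild type. Array A labelled wild type, the highest for Cd247, was also the highest for 7 of the 10, while 2 (Fcer1g and Tyrobp) were highest on array A labelled Fnip1-null and 1 (Prf1) on array C labelled wild type. Ncr1 and Gzmb did not reach the filter. Of 7 plasmacytoid dendritic cell markers limma called none (0 higher and 1 lower at an unadjusted p under 0.05), and their sums overlapped, at 22639 to 29233 against 20907 to 28338. Of 3 conventional dendritic cell and 4 type 2 innate lymphoid markers limma called none, with 0 at an unadjusted p under 0.05. Their sums were 387 to 554 against 392 to 548 and 196 to 245 against 214 to 251. Of 7 B-lineage markers 4 fell (57.1%, against 5.25% of all genes), and none rose by limma (0 at an unadjusted p under 0.05). Those that fell were Rag1 (log2 fold change -2.06, limma adjusted p = 7.38e-06), Cd22 (-1.84, 1.73e-05), Ebf1 (-0.52, 0.0147) and Cd79b (-0.49, 0.0304). Their sums overlapped, at 24395 to 28304 against 24043 to 29042, and the brightest markers, Igll1, Cd79b and Vpreb1, weigh most in them. Pax5 did not reach the filter. The part of any of these cells in the differences of Cd3e, Cd8b1 and Thy1 was not tested.

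Other genes, from lists of T cell genes, moved in both directions. These lists were chosen with earlier results of these data known, so their shares beside those of all genes are descriptions. Of 60 tested genes in lists of receptor, signalling, surface and regulator genes, 10 rose (16.7%, against 7.86% of all genes) and 8 fell (13.3%, against 5.25%), with a median log2 fold change of -0.09 against 0.01 over all genes. The number that rose was 5 when null array B was left out and 6 when wild type array B was. In proximal signalling, 3 of 29 rose (10.3%), 4 fell (13.8%) and 22 did not pass. Lat, the adaptor on which the signalling complex below the receptor assembles, read 9.55, 9.91 and 9.73 against 7.54, 7.26 and 7.14, a 5.34-fold rise (95% interval 4.28 to 6.66, limma adjusted p = 1.06e-05) with the groups far apart. Rasgrp1, the exchange factor that links diacylglycerol to Ras, read 7.88, 8.39 and 8.28 against 10.19, 10.60 and 10.91 and was 5.22-fold higher on the arrays labelled wild type (3.85 to 7.09, limma adjusted p = 9.03e-05).

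The transmembrane adaptor gene Sit1 fell by 1.18 on the log2 scale (limma adjusted p = 0.000338), and Grap2, whose product joins LAT to its partner SLP-76, rose by 0.66 (0.00504). Ubash3a also rose, and Cblb and Bcl10 fell by their brightest probes. The second probe of Cblb stood at 0.06 (limma adjusted p = 0.873) and that of Bcl10 at -0.24 (0.228). Zap70, the kinase that binds the phosphorylated CD3 and zeta chains, stood at -0.33 (limma adjusted p = 0.297), with array A labelled wild type the highest at 8.32. The kinase gene Fyn stood at 0.11 (0.766). Among surface costimulators and adhesion molecules 1 of 11 rose and 1 fell (9.09% each, against 7.86% and 5.25% of all genes). The homing receptor gene Ccr7 rose 2.76-fold (2.11 to 3.61, limma adjusted p = 0.000772), and the adhesion molecule gene Cd2 was 2.52-fold higher on the arrays labelled wild type (1.88 to 3.38, limma adjusted p = 0.00207).

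Of 19 T-lineage regulators 6 rose (31.6%, against 7.86% of all genes), 3 fell (15.8%, against 5.25%) and 10 did not pass. This list too was chosen with earlier results of these data known. The 6 became 2 without null array B, 3 without null array A or C or wild type array A or B, and 4 without wild type array C. The factor gene Lef1, a relative of Tcf7, rose by 0.92 and by 0.86 with its second probe (limma adjusted p = 0.00249 and 0.00153). Ets1 rose by 0.78 by its brightest probe (0.00176), while its other probes stood at 0.18 and -0.30 and did not pass. Id2, an inhibitor of helix-loop-helix factors, fell by 0.97 (0.00171), and Ikzf3 fell by 0.66 (0.0176). Tox, Foxp3, Dtx1 and Myb also rose and Hes1 fell, each by less than 0.6. The brightest probe of Myb stood at 0.53 (limma adjusted p = 0.0194) and a second at -1.06 (0.00699), so that its probes were called in opposite directions. The second probe of Foxp3 stood at -0.07 (0.813). Several of these calls were lost when settings changed, those of Foxp3, Dtx1, Bcl10 and Hes1 under 8 of 15 alternatives each.

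**Figure D4:**
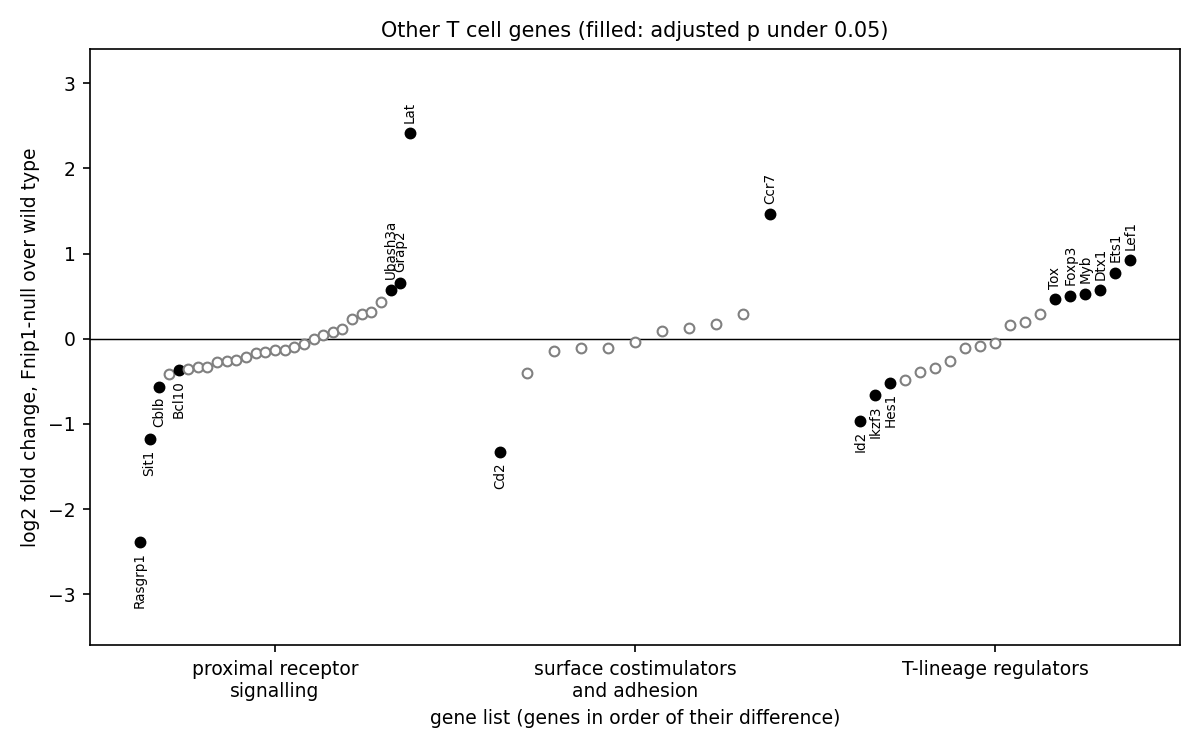
Log2 fold change (vertical axis, Fnip1-null over wild type) of the tested genes of 3 lists, each gene a point in the order of its difference. Filled, named points passed the limma test. Lat at 2.42 and Rasgrp1 at -2.39 are the extremes of the signalling list.

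The antigen-binding chains themselves could be followed in part only. The pre-receptor alpha gene Ptcra was the 1 tested gene of the receptor list and stood at 0.11 (limma adjusted p = 0.658). Probes of variable segments, found by their symbols after the values of the members had been seen, were therefore read as a description, with no test given. The gamma segment Trgv4 read 6.32, 7.65 and 6.79 on the arrays labelled Fnip1-null and 4.53, 5.67 and 5.41 on those labelled wild type. Of the latter, 2 of 3 arrays detected it. The mean of the former stood at least 3.12-fold above that of the latter. The fold is the mean of the brighter group over that of the dimmer, with the lowest detected signal of an array in place of any dimmer value. The beta segment Trbv13-1 was detected on all 3 arrays labelled Fnip1-null and on none labelled wild type, at least 1.28-fold higher. It met the detection filter through the brighter group alone. For Trbv13-2 the probe ILMN_2516221 was at least 1.97-fold higher, with 2 wild type arrays detected, and the probe ILMN_2431390 overlapped between groups, at 9.57 to 10.07 against 9.82 to 10.56. Trgv5 and Trgv6 were detected on no array and Trgv7 on 1. Variable segments resemble each other in sequence, so a probe can take up signal of its relatives.

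Tcf7 lies on chromosome 11, as Fnip1 does, with 60 annotated genes between them. Of its nearest neighbours with a tested probe, the ubiquitin ligase subunit gene Skp1 stood at -0.02 (log2 fold change, limma adjusted p = 0.956) and the mitochondrial channel gene Vdac1 at 0.27 (0.115). Cd3e has Cd3d and Mpzl2 as neighbours, and the next gene on the latter's side with a tested probe, Jaml, stood at -0.04 (0.925). The genes whose levels ran most like the mean of the CD3 chains' brightest probes over the 6 arrays were Ly6e, Rpl38, Nbr1, Pgap6 and Gramd1b, with log2 fold changes between 0.10 and 0.38, of which limma called none. Their Pearson correlations, 0.985 to 0.994, were picked as the highest among the tested named genes outside the lists. With only 6 arrays such values can arise without any link between the genes.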

How the data were processed

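The deposited scanner table gives, per the file headers, each probe's intensity and detection p-value on 6 arrays. Values processed by the authors are in a second table, the series matrix, read as log2 from their range, with a median of 2.46 in each column. The submitters' processing notes name affy, and how that table's background and log base were set is not given. Scanner columns carry the genotype but no replicate number. By the order of their values, arrays A, B and C of each group match samples 1, 2 and 3 of the series matrix.

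Intensities were background-corrected by normexp from the detection p-values with an offset of 16, quantile normalized and put on a log2 scale (neqc, limma 3.58.1, R 4.3.3). A probe had to be detected (p under 0.05) on 3 arrays or more, and the rest were not tested. The test was run with lmFit and eBayes on all 18172 such probes, with Benjamini-Hochberg adjustment. A call is an adjusted p under 0.05, and 95% intervals use 9.17 degrees of freedom. The number of arrays limits the precision. Of 45281 probes 34885 had 1 gene symbol in the platform annotation of 2016, 18 several and 10378 none, and 34807 symbols were updated through the gene number to RefSeq (GRCm38.p6). List genes are represented by the tested probe of highest mean. Named genes were all members, the called list members (up to 4 of lowest p with values, others by name), up to 3 markers per list, the 5 genes most like the CD3 mean by Pearson correlation, and neighbours of Cd3e and Tcf7. Zap70, Fyn, the values of Myb, Foxp3, Cblb and Bcl10, Bcl11b, Trat1, Cd28, Cd79b, Igll1, Vpreb1 and the natural killer genes named by their highest array were named outside that rule, after their values were seen. The members and lists were chosen with earlier results of these data known. The fit was tested on simulated arrays. Alternatives were the filter, background correction, scaling, the series matrix with and without a replicate block, a block on sex, a trended robust fit, the choice of probe and each array left out.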

Additional observations from a re-analysis of the deposited data

How the results depend on the processing

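With 3 probes called higher and 1 lower, the counts were 1 and 0 without a detection filter, and 1 and 1 with the series matrix and a replicate block, where both Cd3e probes lost their call (limma adjusted p = 0.0812 and 0.054). The series matrix without the block gave 3 and 1 (Cd3e 0.0475 and 0.0335). With 1 array left out the higher count ran from 2 to 5 and the lower count stayed at 1. Among other T cell genes, 10 higher and 8 lower became 7 and 7 with the series matrix alone, 6 and 5 with the replicate block added to it, and 5 to 7 higher and 6 to 7 lower with 1 array left out. Over all probes, 1400 higher and 1183 lower became 1032 and 903 with the series matrix alone and 728 and 669 with the block added. They were 826 and 729 without null array B, 928 and 857 without wild type array A, and 849 and 789 without wild type array B. Same-numbered samples had deviations correlated at 0.17, -0.003 and 0.23 in the series matrix. The first and the last were above 0.1 and the second was not, so the numbers were not taken to pair the samples. Whether they do pair them is not known here. Leaving out 1 array turned the sign of the small differences of Cd247 (ILMN_1253828, -0.16 to 0.13) and Cd4 (-0.22 to 0.43), neither of them called. The causes were not tested. Probes at background bound what can be said of Cd8a, and no change there was measurable.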
